A study of Homo sapiens with 6 samples.

Results

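FN1 encodes fibronectin, a secreted glycoprotein that hepatocytes release into plasma and that other cells lay down in the extracellular matrix. The gene (ENSG00000115414.21) lies on the minus strand of hg38 at chr2:215360440-215436073 and spans 75634 nt, with 46 exons in the transcript used here. FN1 was chosen by its number of called sites, which was the third highest among protein-coding genes in these data, so the counts of called sites, their mutation ratios and the shares built on them are descriptions without a test. Every row inside the gene body on its strand was taken. This gave 5674 of the 176343 positions listed under imbalanced dNTP and 3224 of the 246881 positions listed under balanced dNTP, and 888 FN1 positions were in both tables. No position was listed on the opposite strand.

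Nm-mut-seq reads 2′-O-methylation (Nm), a methyl group on the ribose, from mutations that arise during reverse transcription. The RNA was chromatin-associated RNA of HepG2, a human liver cancer cell line, depleted of rRNA and of RNA shorter than 200 nt. Each of 3 ligated RNA samples was divided between 2 reactions, one with balanced dNTP (1 mM of each) and one with imbalanced dNTP (1 mM dATP and 2 µM of the other dNTPs), which gave 3 libraries a group. A short supply of dNTP leads the enzyme to read Gm, Am and Cm as T, and the balanced libraries serve as the input. The mutation ratio is the number of reads with T over the depth, the number of reads at the position. Both groups are the same cells. The study's methods call the replicates biological and the labels name no separate cultures, so what the spread between them covers is not known in full. All 8898 FN1 rows carried the base that hg38 has on the minus strand.

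Fibronectin is a chain of repeated type I, II and III domains. Its pre-mRNA is a textbook case of alternative splicing: the extra domains B (EDB) and A (EDA) are single exons that are kept or skipped whole, and the variable region is part of an exon with alternative splice sites. Plasma fibronectin from hepatocytes is known to lack EDA and EDB, whereas cellular fibronectin can hold either. In the annotation, EDB is exon 25 (chr2:215392931-215393203, 91 residues), which 7 of 10 coding transcripts that cross it leave out. EDA is exon 33 (chr2:215380811-215381080, 90 residues), left out by 6 of 11. The variable region is the first 360 nt of exon 40 (chr2:215372016-215372375, 120 residues).

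A position was called a site where, in all 3 replicates, the depth was at least 10, at least 3 reads held T, and the mutation ratio was more than 3 times that of the input of the same number. The study also required a ratio above that of an unmodified spike-in, which was not applied here, so these sites are a wider set than that of the study's criteria and are not shown to be Nm. The sequences of the sites that the rule for named sites picked are shown first, as examples. The results on bases and neighbours rest on all called sites. Each is the RNA sense with 10 nt on either side, from hg38, with the called base in capitals. Sites in constitutive exons were the 5 with the highest mean ratio at a depth of at least 50:
exon 5, chr2:215430746-215430766: gauuguacuuGccugggagaa
exon 7, chr2:215425095-215425115: ggagucagcuGccaagagaca
exon 16, chr2:215408307-215408327: guuugauccuGucuacuucac
exon 20, chr2:215404634-215404654: acuggaugcuCccacuaaccu
exon 20, chr2:215404552-215404572: auaacaggauAccgacugacc

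The 3 intronic sites with the highest mean ratios at a depth of at least 20, and sites of the alternative exons, gave these windows. The EDB window is centred on position 215393137 of chromosome 2, the only called site of that exon, and it was below the depth asked of named sites:
intron 10, chr2:215421023-215421043: ugagcauacuGuaaccucugc
intron 28, chr2:215384981-215385001: ugaaaaguuuCccuuuuuuuu
intron 42, chr2:215366678-215366698: auuuuacuuuGuagcuuaagg
EDB: cugagguggaCcccgcuaaac
EDA, chr2:215381038-215381058: ggcauucacuGauguggaugu
EDA, chr2:215380939-215380959: uggaauccauGagcuauuccc
variable region, chr2:215372190-215372210: ggcaacaaauGaucuuugagg
variable region, chr2:215372183-215372203: aaugaucuuuGaggaacaugg

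The site in exon 5, the second base of a codon, had 17 reads with T of 111 in replicate 1, 22 of 114 in replicate 2 and 22 of 132 in replicate 3. Its mutation ratio was 17.1% ± 2.03 (SD, n = 3), and the balanced libraries had T in 2 of 184, 0 of 139 and 0 of 189 reads. Every imbalanced library was above every balanced one, which the choice of this site by its calls and ratio nearly fixes. The A in exon 20 had the highest mean ratio of these exonic sites, with 17.6%, 21.3% and 28.6% in replicates 1 to 3, and it was not listed under balanced dNTP.

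The intronic ratios were higher but rested on fewer reads. The G in intron 42 had T in 6 of 22, 10 of 22 and 9 of 34 reads, or 33.1% ± 10.7 (SD, n = 3). The C in intron 28 had T in 6 of 22, 7 of 22 and 7 of 26 reads, or 28.7% ± 2.73. The G in intron 10 had T in 8 of 25, 10 of 30 and 7 of 53 reads, and replicate 3 (13.2%) was far below the others.

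The named sites of EDA and the variable region had lower ratios than the named constitutive ones, which the depth asked of them helped to choose. The first EDA site had T in 4 of 74, 4 of 78 and 6 of 88 reads, or 5.78% ± 0.906 (SD, n = 3), against 0 of 119, 1 of 95 and 0 of 127 under balanced dNTP. The 2 variable region sites had 6.79% ± 1.76 and 6.05% ± 1.90, and neither was listed under balanced dNTP. The EDB site had T in 3 of 18, 4 of 12 and 3 of 32 reads, or 19.8% ± 12.3, as high as the named constitutive sites. Among sites below that depth, 1 in EDA and 1 in the variable region each reached a mean of 16.7%. Over all called sites the median ratio was 7.94% in constitutive exons, 7.27% in EDA and 6.86% in the variable region.

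**Figure D1:**
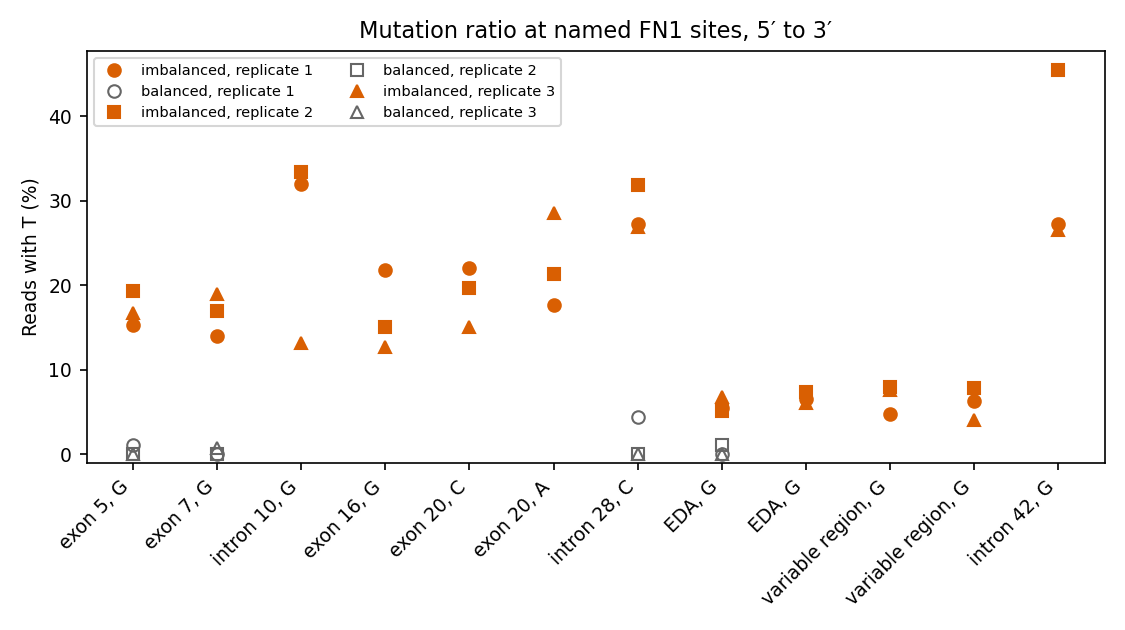
Reads with T in percent at each named site, 5′ to 3′ along FN1, with 1 filled orange marker for each imbalanced library and 1 open grey marker for each balanced library. Sites without grey markers were not listed under balanced dNTP, and the intronic sites of introns 28 and 42 reach the highest mean ratios, 28.7% and 33.1%.

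In all, 552 FN1 positions were called, of 29651 over the series. They were 11.0% of the 4999 FN1 positions that reached 10 reads in each imbalanced library, against 26.7% over all such positions of the series. The median called site had a mutation ratio of 8.99% and a lowest depth of 50. Single replicates passed 2289, 1945 and 3500 positions, so the requirement of all 3 replicates removed most of them. Calls from 2 replicates numbered 937 without replicate 1, 1072 without replicate 2 and 758 without replicate 3. For 400 of the 552 sites no balanced row was listed and the input ratio was taken as 0. At 37 positions T made up at least 20% of reads in every balanced library, and 27 of them were listed under imbalanced dNTP. Of these 0 were called, which the criteria nearly fix, since a call needs more than 3 times the input ratio.

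The mutated and unmutated reads of positions in both tables were also fitted with edgeR, with the replicate number as a block. These counts are a description too: the gene was chosen on the same reads, and a position had to hold at least 3 reads with T in an imbalanced library to be listed at all. Of 826 FN1 positions, 344 had a higher mutated share under imbalanced dNTP at an adjusted p under 0.05 (41.6%), against 73.9% of all 32284 positions tested. None was lower, against 0.0558% of all positions. By class, 293 of 527 positions in constitutive exons, 13 of 22 in EDA, 0 of 5 in the variable region, 0 of 1 in EDB and 38 of 271 in introns were higher. The count was 62 without replicate 1, 95 without replicate 2, 65 without replicate 3 and 546 with no replicate block. In simulated counts the fit seldom found small changes, and where few positions changed it missed most large ones too, so a position not called here may still differ.

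Of the called sites, most lay in exons, but not of those with high ratios. Exons make up 11.1% of the gene's length and held 421 of the 552 sites (76.3%, 95% Wilson interval 72.5% to 79.6%), whereas 40.7% of listed positions were exonic. When each replicate also had to reach a ratio of 0.1, 127 sites were left and 42.5% of them were exonic. The interval, like all those given here, covers counting error only. Constitutive exons had 402 sites among 5788 G, A and C bases (6.95%), EDA had 14 among 212 (6.60%), the variable region 4 among 285 (1.40%), EDB 1 among 206 (0.485%) and introns 131 among 45815 (0.286%). The coding sequence held 399 sites, the 5′ UTR 11 and the 3′ UTR 11. The codons for the RGD motif (chr2:215384063-215384071), through which fibronectin binds integrins, lie in exon 30 and start at residue 1615. Of their bases 2 were listed and 0 were called.

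**Figure D2:**
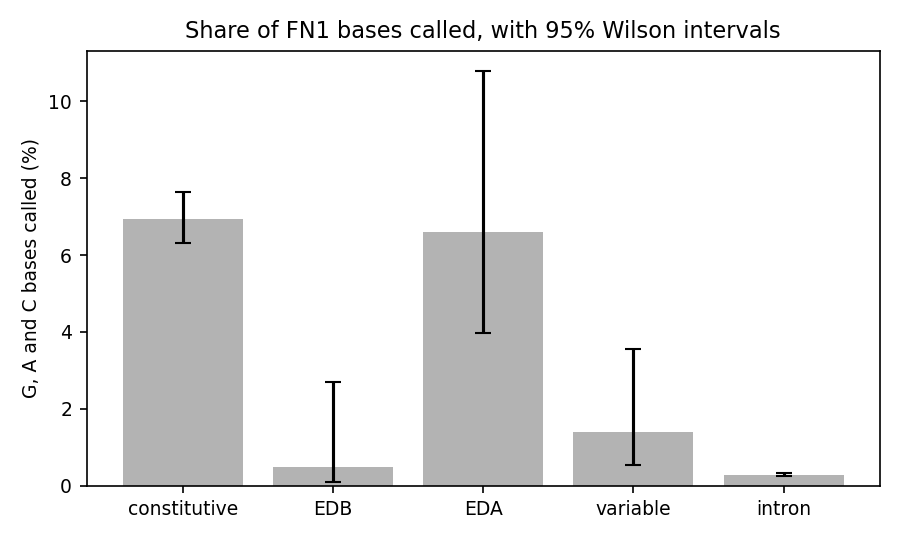
Percent of G, A and C bases called in each class of FN1 sequence; bars are the share and lines the 95% Wilson interval. Constitutive exons (6.95%) and EDA (6.60%) had overlapping intervals, and EDB (0.485%) and introns (0.286%) were lowest.

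Depth moved with these shares. The median depth at listed positions of constitutive exons was 56, 49 and 76 reads in imbalanced replicates 1 to 3, against 19, 17 and 26 in introns. Positions enter the imbalanced table only with at least 3 reads with T in 1 library, so shallow positions are listed only at high ratios. At a lowest depth of 10 to 19 reads, 1.67% of exonic and 2.31% of intronic listed positions were called. At 20 to 29 reads the shares were 3.64% of 302 exonic and 6.45% of 744 intronic positions. At 30 to 39 reads they were 12.2% and 10.6%, and at 40 to 49 reads 17.3% and 17.8%. The difference was not tested because the calls chose the gene.

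**Figure D3:**
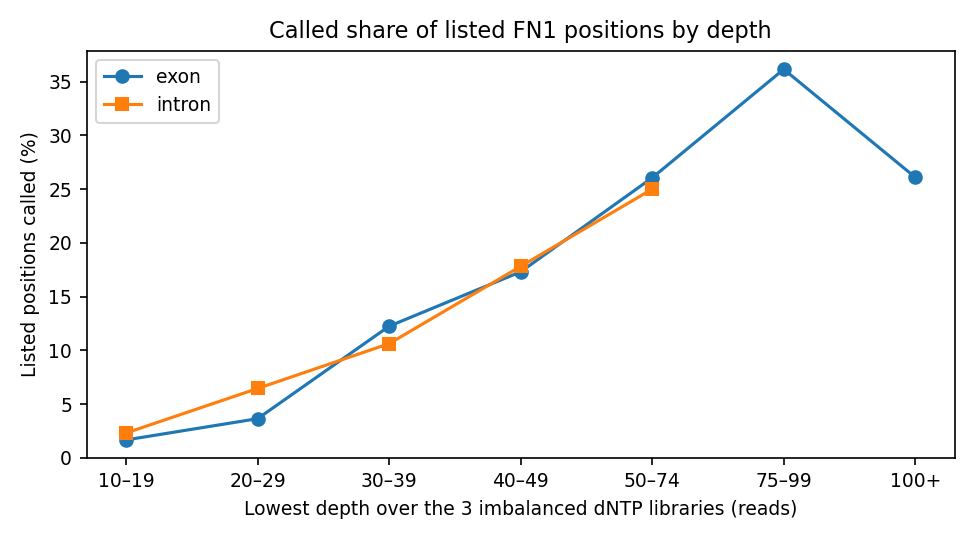
Percent of listed FN1 positions that were called, by the lowest depth over the 3 imbalanced libraries in reads, for exons (circles) and introns (squares). Both lines rise, from 1.67% and 2.31% at 10 to 19 reads to 17.3% and 17.8% at 40 to 49 reads, with introns higher at 20 to 29 reads (6.45% against 3.64%); the intronic point at 50 to 74 reads rests on 16 positions.

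The mutated share of reads was set side by side over 1 range of depth, as a description, since it comes from the reads that chose the gene. Over listed positions with 10 to 100 reads in every imbalanced library, T made up 8.14% ± 0.086 of reads at 2706 intronic positions and 5.32% ± 0.166 at 1591 constitutive exon positions (SD, n = 3). The intronic share was higher by 2.82 ± 0.197 percentage points, in 3 of 3 replicates. Within that range the intronic positions were shallower, so depth was not matched. Standardised over bins of depth, and without positions that held T in at least 10% of balanced reads, the difference was 1.10 ± 0.175 points, a setting chosen after seeing the data. By bins of lowest depth, the median ratios were 7.23% in exons and 9.01% in introns at 10 to 19 reads. They were 5.73% and 6.93% at 20 to 29 reads, 5.05% and 5.46% at 30 to 39, and 4.42% and 5.05% at 40 to 49. At 50 to 74 reads they were 3.79% in exons and 3.70% at 16 intronic positions. The listing rule favours high ratios among shallow positions in all of these settings.

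G was the base called most. It gave 336 of the 552 sites (60.9%, 95% Wilson interval 56.7% to 64.9%), C 124 and A 92, and 95 of the 131 intronic sites were G (72.5%). Among G, A and C bases, G made up 28.6% in the whole gene and 28.2% in introns. Of the 3365 listed intronic positions 1452 were G. In constitutive exons 12.5% of G bases were called, against 5.18% of C and 3.56% of A. A base between 2 uridines (UNU) made up 30.6% of called sites, 22.3% in exons and 57.3% in introns. Such bases were 20.9% of listed positions (11.1% in exons, 27.5% in introns) and 9.03% of G, A and C bases (5.42% and 9.53%). For G the contrast was wide: 75 of 138 UGU bases in constitutive exons were called (54.3%), against 9.08% of other G bases. In introns 62 of 1429 UGU bases were called (4.34%), against 0.288% of other G bases. The windows from exon 16, intron 10 and intron 42 printed above are UGU sites.

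Within the coding sequence, sites were placed unevenly over codons. Of G, A and C bases, 8.35% were called at the first codon position, 7.68% at the second and 4.27% at the third. For G alone the shares were 14.7%, 13.4% and 7.18%. Bases within 5 nt of an inner exon edge were called in 2.79%, against 6.74% of those more than 10 nt away, and their median lowest depth was also smaller, 37 against 46 reads. Another called site lay within 10 nt of 77.9% of exonic and 19.1% of intronic sites.

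Each of the 47 exon parts held at least 1 called site. Exon 5 held most, 23, followed by exons 3 and 10 with 21 each. Of the 13 sites in exon 46, the last exon, 9 lay in windows of 101 nt that matched another locus of hg38 at an identity of at least 90% over at least 80 nt. Reads of such windows could come from either locus. No other exonic and no intronic called site had such a match. The windows are genomic, so those near an exon edge hold intron and can miss a spliced copy. Matches outside the main nuclear chromosomes were not counted.

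Depth fell along the gene. In balanced replicates 1 to 3 the median depth of exon 2 was 156, 109 and 160 reads, and that of exon 46 was 84, 49 and 66. Exons 2 to 12 together had 1.81 to 2.06 times the depth of exons 34 to 45 over the 6 libraries. Spearman's rho of median depth with exon number, over 44 constitutive exons, was between -0.74 and -0.65 in the 6 libraries. The exons share a transcript and a library, so this is a description.

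EDB was the shallowest of the alternative parts, each taken whole, and the cause was not tested. Its median depth was 20.5, 23.5 and 32 reads in the imbalanced and 38, 36 and 38 in the balanced libraries. Over the mean of exons 24 and 26 this was a ratio of 0.445 ± 0.074 (SD, n = 3) and 0.431 ± 0.060. Both were below 1 in 3 of 3 replicates (two-sided exact permutation test on the pairs, p = 0.25 each, which 3 pairs cannot go below). Only 26 of its 206 G, A and C bases were listed under imbalanced dNTP (12.6%), against 36.9% in constitutive exons.

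EDA lay between its neighbours in depth under imbalanced dNTP. It had medians of 47, 46 and 65 reads under imbalanced and 109, 78 and 105 under balanced dNTP. Exon 32 had 59, 59 and 92 reads under imbalanced dNTP and exon 34 had 37, 23 and 38. Over the mean of these exons the ratio was 1.03 ± 0.077 under imbalanced dNTP (p = 1.0 by the exact test) and 1.19 ± 0.091 under balanced dNTP (p = 0.25 by the same exact test). Against all 42 other internal constitutive parts it was 0.889 ± 0.058, and without replicate 2 it was 0.990 over the flanks. From the highest depth in place of the median it was 1.36 ± 0.181, above 1 in 3 of 3 replicates. Of its bases 38.2% were listed, close to the 36.9% of constitutive exons.

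A purine-rich splicing enhancer is known in EDA. The letters GAAGAAGA occurred in 1 of 47 exon parts (2.13%), searched on the sense strand, and that part was EDA. The window at chr2:215380907-215380936 shows it in capitals:
EDA enhancer letters: caccugaugguGAAGAAGAcacugcagagc
None of the capital bases was listed. Of the 30-nt window, 6 positions were listed and 0 met the criteria for called sites, whereas edgeR had 1 G downstream of the capitals, at position 215380913, higher under imbalanced dNTP (log2 change 4.02, adjusted p = 0.00959). The edge of the window is arbitrary. Directly upstream of it the G at position 215380937 was called, with the highest mean ratio of the called EDA sites, 16.7%. The edgeR fit also had that G higher (log2 change 5.28, adjusted p = 7.42e-05).

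The variable region was shallower under imbalanced dNTP, with medians of 29, 26 and 40 reads, than under balanced dNTP, with 85.5, 53.5 and 74. Over exon 39 and the constitutive part of exon 40 the ratio was 0.712 ± 0.072 (p = 0.25 by the exact test) and 0.971 ± 0.045 (p = 0.5 by the same exact test). Taken from the highest depth in place of the median, it was 1.19 ± 0.073 under imbalanced dNTP, so its direction depends on the measure. Its parts differed under imbalanced dNTP: the last 93 nt had medians of 15, 11 and 24 reads at 9 of 67 listed positions. The middle 192 nt had 30, 27 and 52 reads at 41 positions. Under balanced dNTP the last 93 nt held 1 of 34 listed positions. The middle 192 nt held 27, with medians of 96, 54 and 76 reads. The ratios of the 2 dNTP groups thus rest on different positions, and the cause of their difference was not tested.

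**Figure D4:**
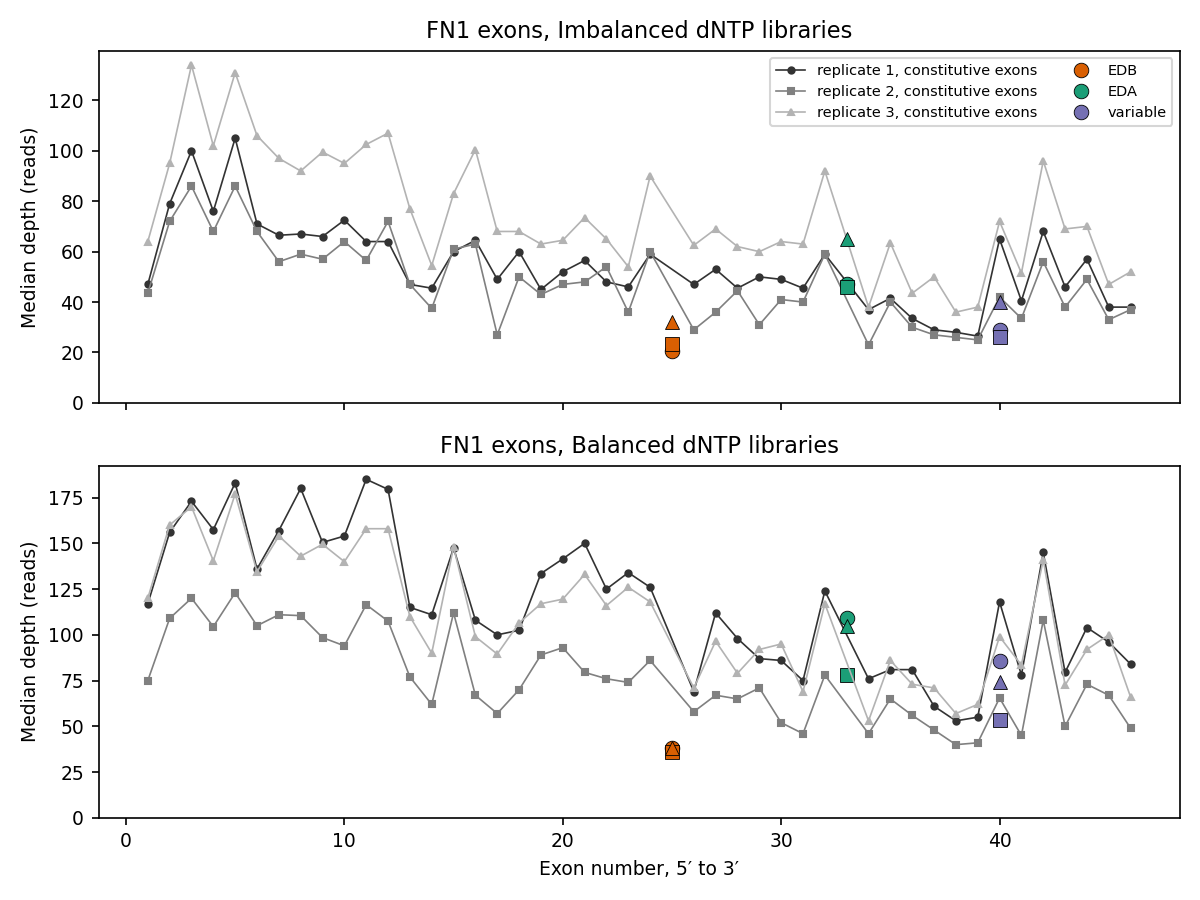
Median depth in reads at the listed positions of each FN1 exon, by exon number from 5′ to 3′, in the 3 imbalanced (top) and 3 balanced (bottom) libraries. Lines join constitutive exons; EDB (orange) lies below its neighbours in every library, EDA (green) near the mean of its neighbours and the variable region (purple) between.

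Introns were covered unevenly. Of 45 introns, 23 held a called site and 22 held none. Intron 10 had the most, 35 called sites, with 280 listed positions and medians of 36, 34 and 51 reads under imbalanced dNTP. The introns on both sides of EDB and EDA (24, 25, 32 and 33), singled out after their values were seen, had 11.1 listed positions per 100 nt under imbalanced and 5.61 under balanced dNTP. The other 41 introns had 4.54 and 2.72, and the next introns outward had 1.58 and 1.73. Introns 39 and 40, beside the exon of the variable region, had 4.21 and 2.89 and held 0 called sites among 102 listed positions. Their median depth was 14, 13 and 21 reads in imbalanced replicates 1 to 3. Few intronic positions of such depth were called, so this 0 says little. The edgeR fit had position 215373217 in intron 39 higher (log2 change 3.68, adjusted p = 0.0369). Besides the introns at EDB and EDA, some introns beside constitutive exons had a high density. Introns 1, 4 and 14 had 11.9, 10.9 and 10.8 under imbalanced and 5.30, 5.31 and 4.64 under balanced dNTP. The 4 introns beside EDB and EDA held 29 called sites among 561 listed positions, and the other 41 held 102 among 2804. Over all introns 131 of 3365 listed positions were called. The next introns outward held 0 among 120 by the same criteria. Their median depth was 10, 10 and 15 reads in imbalanced replicates 1 to 3, against 25, 22 and 34 beside EDB and EDA. At a lowest depth of 10 to 19 reads only 2.31% of intronic listed positions were called, so 0 calls says little. In the edgeR fit 1 position of those next introns, position 215388437 in intron 26, was higher (log2 change 3.77, adjusted p = 0.0459). No called intronic window matched another locus at an identity of at least 80% in the same search.

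**Figure D5:**
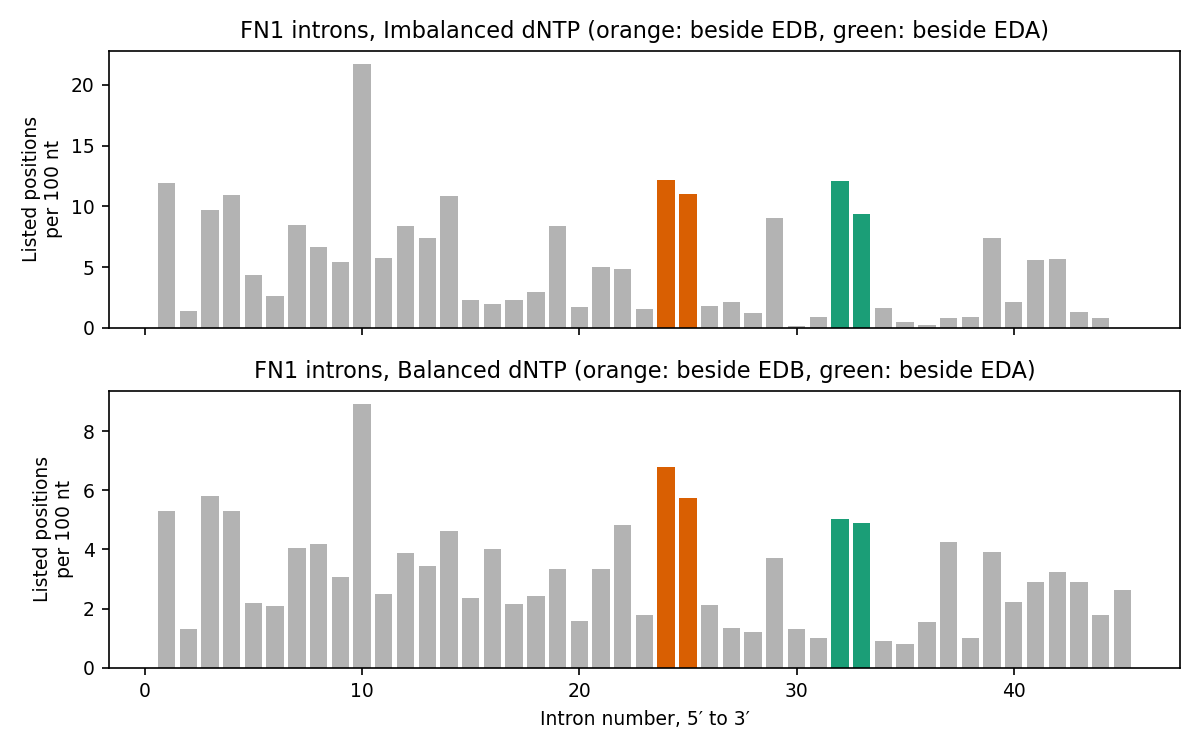
Listed positions per 100 nt in each FN1 intron, 5′ to 3′, under imbalanced (top) and balanced (bottom) dNTP; introns beside EDB are orange and those beside EDA green. Intron 10 is highest in both panels (21.7 and 8.92 per 100 nt), and the coloured introns stand above the introns next to them.

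Over 35761 positions of the series in both tables, depth was lower in the imbalanced libraries. It was 0.491, 0.635 and 0.695 times that of the balanced ones in replicates 1 to 3, and FN1 followed. Over all listed positions of the series the medians were higher under imbalanced dNTP (17, 15 and 23 reads) than under balanced dNTP (14, 10 and 14). The 2 groups list different positions. At FN1 positions in both tables, the depth under imbalanced over that under balanced dNTP was 0.451, 0.585 and 0.649 in exons and 0.527, 0.727 and 0.779 in introns. The intronic ratio was 1.20 ± 0.038 times the exonic one (SD, n = 3). At these positions T made up 5.16% ± 0.110 of constitutive exon reads under imbalanced and 0.584% ± 0.090 under balanced dNTP. In introns it made up 10.5% ± 0.393 and 4.02% ± 0.092, or 8.42% ± 0.383 and 0.952% without positions that held T in at least 10% of balanced reads. Bases other than T or the reference made up 0.254% ± 0.025 of constitutive exon reads under imbalanced and 0.197% ± 0.010 under balanced dNTP.

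The most similar genes were sought among protein-coding genes with at least 50 called sites, by the summed difference in the shares of called sites over 6 classes, G, A or C in exon or intron. APOB, the core protein of low-density lipoprotein, was closest with a distance of 6.92 percentage points over 739 sites. AFP, the fetal serum protein, followed at 21.1 over 100 sites and TPT1 at 31.9 over 69 sites. The called share in exons was 75.6% in APOB and 77.0% in FN1 when exons of all coding transcripts are counted.

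Liver cell markers were present in these libraries. Of 8 hepatocyte markers 6 had listed positions and 5 had called sites, 966 in all, of which APOB alone gave 739. ALB had 115, AFP 100, SERPINA1 7, TF 5 and APOA1 0. TTR and FGB had 0 listed positions under imbalanced dNTP. The 4 markers of other cell types (PTPRC, COL1A1, CDH5 and KRT5) had 0 in both tables. Of 18 genes for fibronectin's receptors and partners, 5 had listed positions under imbalanced dNTP and 2 had a called site, 1 each in LRP1, an endocytic receptor, and FGG, a fibrinogen chain. The integrin subunits ITGB1 and ITGAV had 2 and 5 listed positions and 0 called sites, and ITGA5 had none listed. A gene without listed positions may be expressed below what the listing needs.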

How the data were processed

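Nm-mut-seq was done on chromatin-associated RNA of HepG2 cells in 3 pairs of libraries, balanced and imbalanced dNTP in each. The authors used Cutadapt for adapters, BBMap for duplicates, TopHat2 for alignment to hg38 and JACUSA to tally bases. They deposited raw counts of reads by base for every listed position, with no normalization. All columns of counts were assigned to a library, and the deposited score was not used. Summed depth over listed positions was 17063930 to 22485865 in imbalanced and 22974020 to 34367262 in balanced libraries.

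The members, gene lists and tests were chosen with earlier results of these data known. Positions were annotated with GENCODE release 44. Named sites were the 5 highest mean ratios in constitutive exons, up to 2 in each alternative part (lowest depth of at least 50) and 3 in introns (at least 20), with the highest exonic G, A and C. The study's further criterion, a ratio above that of a spike-in background, was not applied here, which leaves more called sites. An input ratio of 0 was taken where no balanced row was listed.

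Mutated and unmutated reads were fitted by the quasi-likelihood test of edgeR 4.0.16 (R 4.3.3; Benjamini-Hochberg adjustment), with DESeq2 1.42.0 as an alternative. The fit was tested on simulated data with overdispersion measured from the replicates; estimated changes were close to those simulated, no more unchanged positions passed than the threshold allows, and few small changes passed; with few positions changed, most large changes were missed as well. It replaced earlier simulations with settings chosen by hand, of which one recovered no change and a later one most. Depth ratios used exact paired permutation tests; the planned test of mutated shares is not reported because the gene was chosen on those reads. Genomic windows of 101 nt were searched in hg38 with BLAST, and matches outside the main nuclear chromosomes were dropped. Other steps used Python 3.11.15.

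The replicate numbers pair the libraries, since the labels say that each ligated RNA was divided between both reactions. At 24432 positions, deviations of log2 depth correlated within same-numbered pairs (0.75, 0.59 and 0.87), though replicates 1 and 2 also correlated across numbers (0.70 and 0.60).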

Additional observations from a re-analysis of the deposited data

How the results depend on the processing

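Low depth limits the calls: a site with few reads needs a high ratio to hold 3 reads with T, so intronic and EDB values are least certain. Of 84 alternative values, 42 were labelled as unchanged, 39 as moved and 3 as reversed. Shares stayed if within the interval of the reported one, and ratios and differences if they kept its direction. Counts stayed if within a set fold of the reported count, so 380 and 758 called sites and 425 edgeR calls stayed. The unpaired difference in mutated share is among the 42 and could not move. The causes were not tested beyond what each setting removes. The reversals were the EDA depth ratio against all internal constitutive exons (0.889) and without replicate 2 (without single replicates it was 0.990 to 1.06), and the variable region ratio from the highest depth (1.19).

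The 552 called sites became 281 at a depth of at least 50, 141 with at least 5 reads with T, 127 at a ratio of at least 0.1 and 152 at positions listed under balanced dNTP, and 758 to 1072 without 1 replicate. The exonic share was 81.7% at a depth of at least 20, 98.6% at 50, 87.9% with 5 reads, 66.3% and 42.5% at ratios of at least 0.05 and 0.1, 88.2% at positions listed under balanced dNTP, 84.1% with exons of any transcript and 65.6% to 70.4% without 1 replicate. The G share was 56.2% at a depth of at least 50, 73.8% with 5 reads, 66.8% and 81.1% at the ratios, and 54.2% to 56.9% without 1 replicate. The share of exonic bases called was 4.27% at a depth of at least 50, 1.91% with 5 reads, 3.88% and 0.832% at the ratios, 2.06% at positions listed under balanced dNTP and 8.23% to 10.8% without 1 replicate. The UNU share was 21.0% at a depth of at least 50, 40.4% with 5 reads, 38.2% and 55.9% at the ratios, 25.0% at positions listed under balanced dNTP and 27.6% to 28.8% without 1 replicate.

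With no replicate block edgeR called 546 FN1 positions in place of 344, and 62 to 95 without 1 replicate; DESeq2 called 425. Input pooled over replicates, which drops the pairing, left 552 called sites. The difference between the intronic and the exonic mutated share was 2.82 points, 1.77 at a depth of 10 to 50 and 1.10 standardised over depth. Dropping the pairing leaves it at 2.82 by arithmetic, since a mean of paired differences equals the difference of the means.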
